A study of Mus musculus with 10 samples.

Results

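In total RNA of mouse pancreas, 52 of 19938 measured genes form the set described here, strong increases in mice deleted for the Hippo kinases MST1 and MST2 that remained after better-known genes had been set aside. They were chosen by their own values. A gene entered when its mean log2 level over the 5 DKO arrays exceeded the mean over the 5 control arrays by at least 0.8 and when its lowest DKO array lay above its highest control array, and 74 genes did so. Of these, 22 were left out by name, among them Ccn1, Ankrd1, Krt7 and Cldn4, which left 52. Because the difference between DKO and control selected these genes, it is given below as a description, with no test.

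The samples were 5 control and 5 DKO pancreases of mixed strain background, each hybridised to 1 Affymetrix Mouse Gene 1.0 ST array, whose probes lie along the whole transcript. The DKO genotype reads PDX1Cre, Mst1-/-, Mst2L/L in the labels, so that MST1 was null in every tissue, whereas MST2 was floxed and was lost only where the Pdx1 promoter, at work in progenitors of the pancreas, drove Cre. Cells of the organ that did not descend from Pdx1-expressing cells, such as those of vessels, nerves and blood, would lack MST1 alone. The labels give the control genotype only as control, and the age and sex of the mice are not given there. Nor do they say whether each array of a group stands for an animal of its own, so errors and p-values measure the spread between these arrays, which may in part be technical.

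MST1 and MST2 stand at the head of the Hippo cascade, in which they activate the LATS kinases, and LATS in turn keeps the coactivators YAP and TAZ out of the nucleus. YAP and TAZ bind DNA mainly through TEAD factors and often act together with AP-1, a dimer of Fos and Jun proteins. In the exocrine pancreas acinar cells make digestive enzymes and duct cells carry and alkalinise the juice.

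Levels are log2 values as deposited, so that a difference of 1 is a doubling, and where a gene's 5 values are listed they stand in the order of replicates 1 to 5. Array medians over all clusters were 7.12 to 7.15, and any 2 arrays correlated across genes at 0.976 to 0.995. Stk4, which encodes MST1, read 5.01 to 5.23 in control and 5.07 to 5.21 in DKO arrays (difference -0.02, SE 0.0552, limma adjusted p = 0.884). Which part of the gene the null allele removes, and whether the probes of its cluster lie there, is not given in the sources used here, so Stk4 checks nothing and DKO below means the arrays labelled so. Stk3, which encodes MST2, was not analysed here. Acinar markers averaged 11.76 to 12.22 per array and islet markers 9.68 to 10.07, so the labelled tissue carried its defining transcripts. By Xist and Eif2s3y, control replicates 2, 3 and 4 and DKO replicates 1 and 4 were female and the others male. DKO replicate 1 stood apart in liver transcripts, with Alb (albumin) at 13.40 against 8.54 to 10.86 in the other arrays. Control replicates 2 and 3 stood apart in Ctrc, the gene of a pancreatic protease, at 12.41 and 12.33 against 7.50 to 8.60 elsewhere.

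The 52 differences ran from 0.80 to 2.12 with a median of 1.02, against a median of -0.006 over all genes, and 27 were at least 1. Their errors ran from an SE of 0.0645 for Slc25a24 to 0.377 for Aadac, with a median of 0.137. The rule was met by 0.371% of all genes, and 3.52% of all genes had every DKO array above every control array. In the limma test across all genes 2.08% passed as higher in DKO and 0.366% as lower, at an adjusted p of 0.05, and at an unadjusted p of 0.05 the shares were 9.18% and 5.66%, or 14.8% in either direction. Of the 52 genes 51 passed as higher, all but Irx4, and since the rule used the same contrast nothing is read from that count. Control means ran from 4.98 for Ttc6 to 10.83 for Cldn6. Detection calls were not analysed here. As a rough guide to background, since probes differ in brightness, Xist and Eif2s3y read 3.99 to 5.75 in the arrays of the sex that does not express them. In 5 genes (Ttc6, Cers3, 2310057J18Rik, Cyp11a1 and Chil5) every control array was at or under 5.75, as was the control mean of Ncam2, and for such genes the difference may understate the fold. The groups were separated by a gap of 0.10 to 1.11 between the highest control and the lowest DKO array, with a median of 0.53. The gap was narrowest in Plscr2 (0.10) and Tuft1 (0.12) and widest in Mal (1.11). In bulk tissue a larger share of a cell type cannot be told apart from more RNA per cell of that type.

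**Figure D1:**
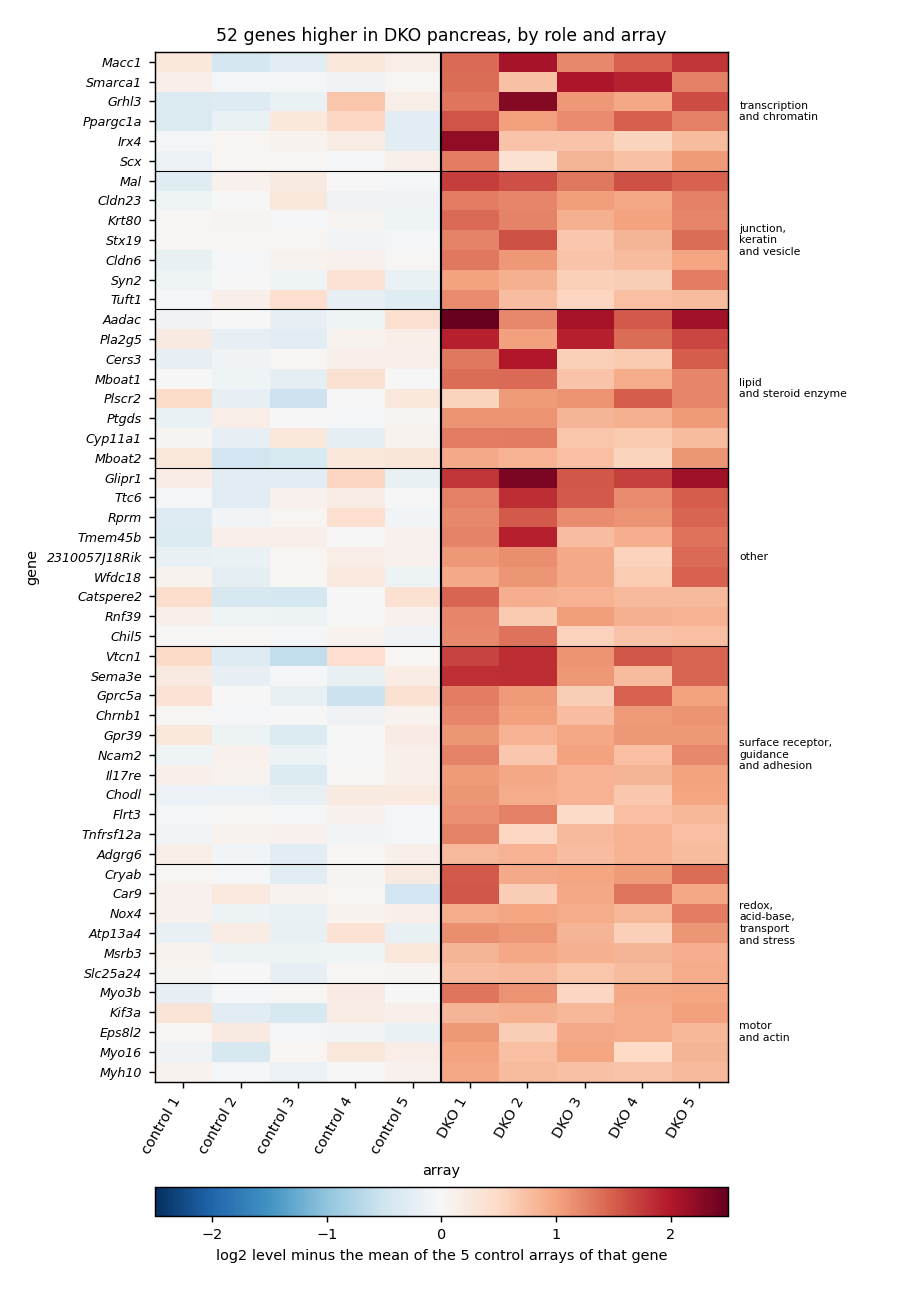
Each row is 1 of the 52 genes, grouped by role, and each column is 1 of the 10 arrays. Colour is the log2 level minus the mean of the 5 control arrays of that gene (red higher, blue lower). The DKO columns are red throughout because the rule asked for it, and the depth of red differs between DKO arrays in genes such as Irx4, Smarca1 and Cers3. Aadac in DKO replicate 1 lies beyond the end of the colour scale.

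Values near the threshold show how the choice falls. Just inside were Tuft1 (0.807), Myh10 (0.805) and Slc25a24 (0.802), and just outside, with no overlap of the groups but a difference under 0.8, were Smim3 (0.799), Angptl1 (0.796) and Cnksr2 (0.789). Another 18 genes differed by 0.7 to 0.8 without overlap. A further 51 genes differed by at least 0.8 but overlapped, and 38 of these were highest in DKO replicate 1, the array with the high liver transcripts.

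Sequences before the start sites of 6 of the genes follow, from RefSeq on assembly GRCm38.p6, each with 250 bases before and 50 after the annotated start. Cldn6 and Tnfrsf12a are shown because they lie side by side, Mal and Pla2g5 because they are among the largest differences and carry the TEAD motif, and Macc1 and Vtcn1 because they carry the AP-1 motif. Capitals mark GGAATG (TEAD) or its reverse complement, or TGANTCA (AP-1), where N is any base.
Cldn6 (chr17:23679115-23679414, plus strand): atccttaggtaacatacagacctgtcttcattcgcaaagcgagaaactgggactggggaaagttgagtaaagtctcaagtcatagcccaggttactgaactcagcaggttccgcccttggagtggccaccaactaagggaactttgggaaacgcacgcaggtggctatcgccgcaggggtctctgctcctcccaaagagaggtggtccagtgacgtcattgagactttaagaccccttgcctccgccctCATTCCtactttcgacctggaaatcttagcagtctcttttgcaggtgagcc
Tnfrsf12a (chr17:23677400-23677699, minus strand): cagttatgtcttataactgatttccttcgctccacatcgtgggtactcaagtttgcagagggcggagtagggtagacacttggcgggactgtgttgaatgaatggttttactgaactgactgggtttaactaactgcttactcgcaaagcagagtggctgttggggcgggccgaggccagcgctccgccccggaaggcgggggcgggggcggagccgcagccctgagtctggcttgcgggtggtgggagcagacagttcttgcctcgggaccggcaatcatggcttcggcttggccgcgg
Mal (chr2:127656646-127656945, minus strand): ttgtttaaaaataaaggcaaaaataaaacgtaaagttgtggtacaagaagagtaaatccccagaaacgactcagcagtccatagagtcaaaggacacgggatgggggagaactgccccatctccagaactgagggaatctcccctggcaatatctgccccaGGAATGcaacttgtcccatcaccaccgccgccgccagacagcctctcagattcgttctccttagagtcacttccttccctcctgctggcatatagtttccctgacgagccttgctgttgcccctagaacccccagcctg
Pla2g5 (chr4:138819208-138819507, minus strand): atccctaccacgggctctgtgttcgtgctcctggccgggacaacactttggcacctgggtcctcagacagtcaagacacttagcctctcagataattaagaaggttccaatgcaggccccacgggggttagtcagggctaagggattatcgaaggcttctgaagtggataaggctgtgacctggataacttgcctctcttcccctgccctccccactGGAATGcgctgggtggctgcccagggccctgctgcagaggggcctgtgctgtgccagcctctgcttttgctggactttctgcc
Macc1 (chr12:119443160-119443459, plus strand): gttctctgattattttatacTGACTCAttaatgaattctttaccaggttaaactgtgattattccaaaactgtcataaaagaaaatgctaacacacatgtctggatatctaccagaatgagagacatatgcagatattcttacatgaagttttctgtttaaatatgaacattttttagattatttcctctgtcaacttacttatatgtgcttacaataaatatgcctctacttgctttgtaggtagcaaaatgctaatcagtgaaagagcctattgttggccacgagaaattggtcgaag
Vtcn1 (chr3:100825209-100825508, plus strand): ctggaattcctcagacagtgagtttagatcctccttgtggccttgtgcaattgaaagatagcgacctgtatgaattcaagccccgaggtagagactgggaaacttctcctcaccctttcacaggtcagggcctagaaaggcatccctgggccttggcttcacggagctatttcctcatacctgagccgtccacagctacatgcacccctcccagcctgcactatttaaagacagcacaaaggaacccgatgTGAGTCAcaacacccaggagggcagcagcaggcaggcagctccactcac
The Cldn6 match begins at base -1 from the start site, that of Mal at base -89 and that of this Pla2g5 promoter at base -33, while Macc1 holds its AP-1 match at base -230 and Vtcn1 at base 2 of the transcript. The Tnfrsf12a window holds neither run of letters.

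Of the 52 genes, 43 had at least 1 promoter in the table, 48 promoters in all. GGAATG on either strand was found in 11 of the 48 (22.9%), against 14.7% of all 32851 promoters of this length and 13.2% of the 19177 that belong to measured genes. Its carriers were Cldn6, Chrnb1, Myh10, Il17re, Mal, Eps8l2, Syn2, Stx19, Slc25a24 and both promoters of Pla2g5. TGANTCA, whose reverse complement is the same pattern, was found in 6 of the 48 (12.5%), against 7.81% of all promoters and 6.90% of those of measured genes. Its carriers were Atp13a4, Car9, Gpr39, Macc1, Ptgds and Vtcn1. No promoter held both motifs, so no matches overlapped. These counts are small and describe letters in a short window, and most sites used by TEAD factors lie outside such windows.

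The 6 genes that act in or on the nucleus had the highest median difference of any role group, 1.38. They were Macc1, an SH3-domain protein described as an activator of Met transcription, Smarca1, the X-linked ATPase of ISWI chromatin remodelling complexes, Grhl3, a grainyhead factor of barrier epithelia, Ppargc1a, the coactivator of mitochondrial biogenesis, Irx4, an Iroquois homeobox factor known from heart ventricle, and Scx, the tendon factor scleraxis. Macc1 read 6.33, 5.63, 5.81, 6.35 and 6.24 in the 5 controls and 7.49, 8.13, 7.27, 7.55 and 7.85 in DKO replicates 1 to 5, a difference of 1.59 (SE 0.183). The lowest controls of Macc1 were replicates 2 and 3, and DKO replicate 2 was highest. Smarca1 lay at 7.72, 7.55, 7.54, 7.50 and 7.65 in control arrays 1 to 5 and at 8.98, 8.33, 9.61, 9.52 and 8.85 in DKO arrays 1 to 5, a difference of 1.47 (SE 0.206). Its controls lay close together, whereas its DKO arrays spread over more than 1 unit, with replicates 3 and 4, a male and a female, on top. Smarca1 was thus highest in the arrays that were lowest for many of the other genes. The log2 levels of Grhl3 were 7.31, 7.32, 7.47, 8.34 and 7.80 in the control arrays and 8.99, 9.94, 8.74, 8.61 and 9.28 in the DKO arrays, a difference of 1.46 (SE 0.264). Control replicate 4 of Grhl3 came within 0.27 of the lowest DKO array. Control arrays gave 7.24, 7.43, 7.86, 8.12 and 7.32 for Ppargc1a, and DKO arrays gave 9.17, 8.62, 8.78, 9.09 and 8.85, a difference of 1.31 (SE 0.173). Ppargc1a was the sole gene of the set with a further transcript cluster, and that cluster differed by 1.16. Irx4 differed by 1.00, but this rested in part on DKO replicate 1 at 8.55, the other DKO arrays being at 6.87 to 7.11 and the controls at 6.06 to 6.50. Without DKO replicate 1 the difference of Irx4 was 0.69, under the threshold. Scx differed by 0.86, from 7.19 to 7.47 in control and from 7.72 to 8.63 in DKO arrays.

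The 7 genes of junctions, keratin filaments and vesicle traffic had a median difference of 1.15. Mal read 7.35, 7.77, 7.87, 7.66 and 7.62 in the 5 controls and 9.38, 9.27, 8.98, 9.25 and 9.13 in DKO replicates 1 to 5, a difference of 1.55 (SE 0.102). Mal, a membrane proteolipid of apical transport in polarised epithelia, had its groups farther apart than any other gene of the set, with every DKO array at or above 8.98 and every control at or below 7.87. Cldn23 lay at 7.14, 7.25, 7.52, 7.15 and 7.16 in control arrays 1 to 5 and at 8.53, 8.46, 8.28, 8.21 and 8.50 in DKO arrays 1 to 5, a difference of 1.15 (SE 0.0892). The log2 levels of Krt80 were 7.95, 7.98, 7.86, 7.98 and 7.80 in the control arrays and 9.32, 9.15, 8.80, 8.93 and 9.13 in the DKO arrays, a difference of 1.15 (SE 0.0912). Cldn23 is a tight junction claudin and Krt80 a type II keratin of differentiating epithelia. In both the arrays of a group lay close together, apart from control replicate 3 of Cldn23. Cldn6, a claudin known from embryonic epithelia, read 10.66 to 10.94 in control and 11.55 to 12.14 in DKO arrays, a difference of 0.98. Stx19, a syntaxin of vesicle fusion, differed by 1.15, with controls between 5.69 and 5.81 and DKO arrays between 6.43 and 7.35. Syn2, a synapsin known from synaptic vesicles, differed by 0.87, and Tuft1, which encodes tuftelin, first known from tooth enamel, by 0.81.

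**Figure D2:**
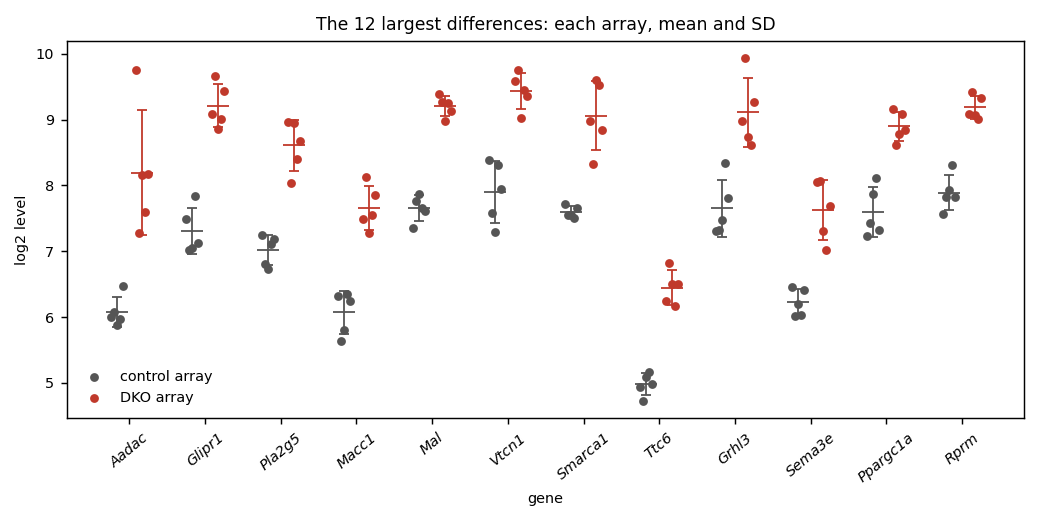
The 12 largest differences are plotted with the log2 level on the vertical axis, 1 point per array, grey for control and red for DKO, with bars for the mean and SD of 5 arrays. Red and grey points do not overlap in any gene, as the rule required. The DKO points spread most in Aadac (7.28 to 9.76) and least in Mal (8.98 to 9.38).

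The 11 receptors, guidance cues and adhesion proteins had a median difference of 0.98. Among ligands, Vtcn1 read 8.38, 7.58, 7.29, 8.32 and 7.95 in the 5 controls and 9.59, 9.76, 9.02, 9.45 and 9.36 in DKO replicates 1 to 5, a difference of 1.53 (SE 0.211). Vtcn1 is a B7-family surface protein that restrains T cells. Its controls split, replicates 2 and 3 being the lowest, and all DKO arrays were above the highest of them. Sema3e lay at 6.46, 6.02, 6.20, 6.04 and 6.42 in control arrays 1 to 5 and at 8.05, 8.07, 7.31, 7.02 and 7.69 in DKO arrays 1 to 5, a difference of 1.40 (SE 0.197). Sema3e is a secreted semaphorin that signals through plexin D and guides axons and vessels, and DKO replicates 3 and 4 were its lowest DKO arrays. Control arrays gave 7.08, 6.70, 6.52, 6.17 and 7.08 for Gprc5a, and DKO arrays gave 7.99, 7.78, 7.32, 8.18 and 7.72, a difference of 1.09 (SE 0.197). Gprc5a, an orphan receptor induced by retinoic acid, varied among controls by nearly as much as the groups differed.

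Of the other receptors, Chrnb1, the beta subunit of the muscle acetylcholine receptor, showed a tight separation. It read 7.17 to 7.34 in control and 8.03 to 8.46 in DKO arrays, a difference of 1.04 (SE 0.077). Gpr39, a zinc-sensing receptor, differed by 1.02, Il17re, a subunit of the receptor of an epithelial interleukin-17 cytokine, by 0.95, and Tnfrsf12a, the receptor of the TNF-family ligand TWEAK, by 0.84. Adgrg6, an adhesion receptor needed for myelination of peripheral nerve, differed by 0.82, with its DKO arrays all between 9.66 and 9.77. The adhesion molecules Ncam2 (0.98) and Flrt3 (0.89) and the membrane lectin Chodl (0.92), completed this group. Ncam2 lay between 5.60 and 5.85 in control and between 6.40 and 6.98 in DKO arrays.

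The 8 enzymes and transporters of lipids and steroids had a median difference of 1.11 and included the largest difference of all. Aadac read 5.99, 6.07, 5.88, 5.98 and 6.47 in the 5 controls and 9.76, 7.28, 8.16, 7.60 and 8.18 in DKO replicates 1 to 5, a difference of 2.12 (SE 0.377), or 4.34-fold. Aadac is an esterase of the endoplasmic reticulum that is abundant in liver and gut. It was highest in DKO replicate 1, the array with albumin at 13.40, and without that array its difference was 1.73. The other DKO arrays were at 7.28 to 8.18, above all controls as the rule required. Pla2g5 lay at 7.24, 6.81, 6.73, 7.11 and 7.18 in control arrays 1 to 5 and at 8.97, 8.04, 8.95, 8.41 and 8.68 in DKO arrays 1 to 5, a difference of 1.60 (SE 0.177). Pla2g5, a secreted phospholipase that frees fatty acids from membranes, was again lowest in control replicates 2 and 3. The log2 levels of Cers3 were 5.30, 5.41, 5.53, 5.62 and 5.63 in the control arrays and 6.82, 7.50, 6.09, 6.15 and 7.01 in the DKO arrays, a difference of 1.21 (SE 0.237). Cers3 makes the very-long-chain ceramides of the skin barrier, and its DKO arrays fell apart, replicates 3 and 4 lying closest to the controls and replicate 2 highest.

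The lysophospholipid acyltransferases Mboat1 (1.13) and Mboat2 (0.85) were both in the set. The phospholipid scramblase Plscr2 differed by 1.10, and Ptgds, which makes prostaglandin D, by 1.01. Ptgds was tight in both groups, 8.01 to 8.36 in control and 9.04 to 9.32 in DKO arrays. Cyp11a1, the mitochondrial enzyme that starts steroid hormone synthesis from cholesterol, differed by 0.94, from 5.19 to 5.69 in control to 6.06 to 6.72 in DKO arrays.

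The 6 genes of redox, acid-base balance, transport and stress had a median difference of 0.97. Cryab read 9.65, 9.57, 9.33, 9.68 and 9.83 in the 5 controls and 11.15, 10.55, 10.59, 10.67 and 11.02 in DKO replicates 1 to 5, a difference of 1.18 (SE 0.13). Cryab is a small heat shock protein that holds unfolded proteins in solution, and DKO replicates 1 and 5 were its highest arrays. Car9 lay at 7.37, 7.51, 7.36, 7.33 and 6.80 in control arrays 1 to 5 and at 8.83, 7.90, 8.25, 8.60 and 8.25 in DKO arrays 1 to 5, a difference of 1.09 (SE 0.177). Car9, a carbonic anhydrase at the cell surface and a classic transcript of hypoxia, was lower in control replicate 5 than in the other controls. Control arrays gave 6.11, 5.87, 5.83, 6.08 and 6.12 for Nox4, and DKO arrays gave 6.92, 6.99, 6.93, 6.82 and 7.27, a difference of 0.99 (SE 0.0924). Nox4, an NADPH oxidase that makes hydrogen peroxide, was nearly even among DKO arrays except replicate 5. Atp13a4, a P-type ATPase, differed by 0.96, Msrb3, which repairs oxidised methionine, by 0.89, and Slc25a24, the mitochondrial ATP-magnesium carrier, by 0.80. DKO arrays of Msrb3 lay between 9.63 and 9.74, and those of Slc25a24 between 9.17 and 9.40.

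The 5 motor and actin genes had the lowest median difference, 0.89. Myo3b read 5.86, 6.02, 6.10, 6.27 and 6.06 in the 5 controls and 7.40, 7.18, 6.60, 7.03 and 7.05 in DKO replicates 1 to 5, a difference of 0.99 (SE 0.13). The log2 levels of Kif3a were 7.46, 6.87, 6.74, 7.32 and 7.26 in the control arrays and 7.98, 8.03, 7.95, 8.06 and 8.15 in the DKO arrays, a difference of 0.90 (SE 0.128). Control arrays gave 8.92, 9.10, 8.82, 8.79 and 8.70 for Eps8l2, and DKO arrays gave 9.96, 9.49, 9.82, 9.80 and 9.70, a difference of 0.89 (SE 0.0951). Myo3b is a class III myosin and Eps8l2 an actin-binding protein, both known from the stereocilia of the inner ear, and Kif3a is a kinesin subunit that builds cilia. In Kif3a the DKO arrays lay close together, and the controls split with replicates 2 and 3 lowest. Myh10, the heavy chain of nonmuscle myosin IIB, differed by 0.80 (SE 0.0652) and Myo16, an unconventional myosin known from brain, by 0.82.

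The last 9 genes have other or less settled roles, with a median difference of 1.04. Glipr1 read 7.50, 7.02, 7.05, 7.84 and 7.13 in the 5 controls and 9.09, 9.67, 8.86, 9.01 and 9.43 in DKO replicates 1 to 5, a difference of 1.91 (SE 0.188). Glipr1, a membrane-anchored protein of the CAP family, was lowest in control replicates 2 and 3 and highest in DKO replicate 2. Ttc6 lay at 4.94, 4.73, 5.09, 5.17 and 4.98 in control arrays 1 to 5 and at 6.24, 6.82, 6.51, 6.16 and 6.50 in DKO arrays 1 to 5, a difference of 1.46 (SE 0.125). The log2 levels of Rprm were 7.57, 7.82, 7.93, 8.31 and 7.82 in the control arrays and 9.09, 9.42, 9.08, 9.01 and 9.34 in the DKO arrays, a difference of 1.30 (SE 0.129). Ttc6 is a tetratricopeptide repeat protein and Rprm encodes reprimo, a p53-induced brake on the cell cycle. Control replicate 2 and DKO replicate 2 were the lowest and the highest array of Ttc6. Tmem45b, a transmembrane protein, differed by 1.25, Wfdc18, a small secreted protein of the whey acidic protein family, by 1.02, and Rnf39, a RING finger protein, by 0.93. Catspere2, a paralogue of a sperm calcium channel subunit, differed by 0.97 and Chil5, a chitinase-like protein, by 0.92. The unnamed locus 2310057J18Rik differed by 1.04.

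The DKO arrays were not equal over these genes. The mean of the 52 was 8.59, 8.44, 8.24, 8.26 and 8.47 in DKO replicates 1 to 5, against 7.31, 7.21, 7.20, 7.38 and 7.33 in the controls in the same order. DKO replicate 1 was the highest DKO array for 25 of the 52 genes and replicate 2 for 17, against 24.3% and 21.6% of all genes. Replicate 3 was the lowest for 21 and replicate 4 for 18, against 16.3% and 17.5% of all genes. Replicates 3 and 4 were together the lowest pair in 26 of 52 genes (50%), against 8.89% of all genes. Among the 22 genes left out by name the count was 7. The genes with that pattern included Cers3, Sema3e, Grhl3, Tmem45b and Stx19, where the mean of replicates 1, 2 and 5 exceeded that of replicates 3 and 4 by 0.65 to 0.99. Replicate 3 was male and replicate 4 female.

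In the control group, replicates 2 and 3 were the lowest pair in 17 of the 52 genes (32.7%), against 14.0% of all genes and 4 of the 22 left out by name. Vtcn1, Mboat2, Catspere2, Plscr2, Macc1 and Kif3a showed it most, with the other controls 0.54 to 0.78 higher than these. Both arrays were female and carried the high Ctrc level, whose part in this pattern was not tested. Control replicate 4, also female, had Ctrc at 8.60. It was the highest control for 18 of the 52 genes, and for 26.6% of all genes. Only 4 genes had both the control and the DKO pattern.

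Lists of markers of several cell types were compared beside the set. No gene of the set is on any of these lists, which were put together with earlier results of these data known. Of 17 measured duct markers that had not been left out by name, 4 were higher in DKO and 0 lower in limma, against 2.08% and 0.366% of all genes (8 and 1 at an unadjusted p of 0.05, against 9.18% and 5.66%), among them Clu (0.69, adjusted p = 8.78e-04), Krt19 (0.41, adjusted p = 0.0155) and Krt8 (0.30, adjusted p = 0.0379, a call lost on leaving out any of 8 arrays). The 1 duct marker lower at an unadjusted p of 0.05 was Sox9, a duct transcription factor (-0.26, limma adjusted p = 0.149). The mean of the 17 duct markers per array was 10.18 to 10.39 in control and 10.35 to 10.48 in DKO, so the groups overlapped. This mean was higher in DKO replicates 1, 2 and 5 than in 3 and 4. Of 18 acinar markers 0 were higher and 1 was lower in limma (0 and 5 at an unadjusted p of 0.05). It was Rbpjl, a factor of acinar differentiation (-0.45, adjusted p = 0.0225), with list means of 12.09 to 12.22 in control and 11.76 to 12.07 in DKO, and its call ended without DKO replicate 4, control replicate 3 or control replicate 5. Of 20 hepatocyte markers 0 passed in limma (0 at an unadjusted p of 0.05), with list means of 6.22 to 6.88 in all arrays but DKO replicate 1, where it was 10.06. On this log2 scale no marker is at 0, and the part of these cell types in the levels of the 52 genes was not tested.

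Of 27 measured YAP and TAZ targets that the rule had not left out by name, 9 were higher in DKO and 0 lower in limma, against 2.08% and 0.366% of all genes (18 and 0 at an unadjusted p of 0.05, against 9.18% and 5.66%), with a median of 0.30 against -0.006 over all genes. Ajuba, a LIM protein that restrains LATS (0.73, SE 0.0788, adjusted p = 0.00103), F3, the initiator of clotting (0.66, SE 0.0849, adjusted p = 0.00245), and Amotl2, a junction protein that binds YAP (0.65, SE 0.0885, adjusted p = 0.00339), had the smallest p-values. As the list was made with earlier results known, its count is not independent evidence of its direction. The mean of these 27 was 8.63 to 8.73 in control and 8.90 to 9.03 in DKO arrays. Of the remaining lists, gastric and intestinal epithelium had 2 of 19 lower (3 lower and 0 higher at an unadjusted p of 0.05), Muc6 (-0.39, adjusted p = 0.0210) and Tff2 (-0.29, adjusted p = 0.0309), smooth muscle 1 of 9 higher (2 higher and 0 lower at an unadjusted p of 0.05), Mylk (0.29, adjusted p = 0.0340), and the 14 islet, stromal, immune, vascular, blood, nerve, striated muscle, fat, stress, proliferation and metabolic lists had 0 of 167 past the limma test (22, or 13.2%, at an unadjusted p of 0.05, against 14.8% of all genes). Within these 14 the islet list had 5 of 16 markers lower and 0 higher at an unadjusted p of 0.05 in limma. That compares with 5.66% lower and 9.18% higher of all genes, and its median difference was -0.17. The call of Muc6 ended without control replicate 5, that of Tff2 on leaving out any of 7 arrays and that of Mylk on leaving out any of 9.

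**Figure D3:**
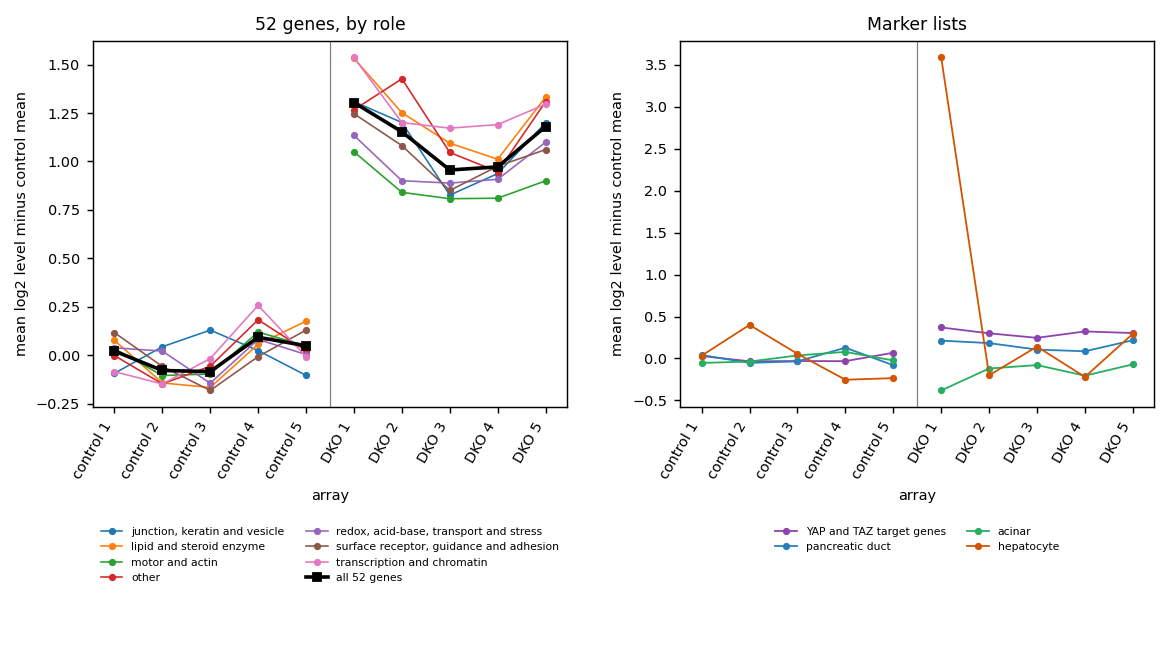
Left, the mean log2 level of the 52 genes and of each role group per array, minus the mean of the control arrays. Right, the same for 4 marker lists without the genes left out by name, on another scale. Lines join the arrays of a group only to guide the eye, since replicates have no order. DKO replicates 3 and 4 are the lowest DKO arrays for the 52 genes as a whole, the YAP target list is higher in all DKO arrays, the duct list overlaps between groups, and the hepatocyte list is high in DKO replicate 1.

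Genes that share a symbol stem with one of the 52 were compared next, since the rule did not use their values to choose the set, although a relative that had met the rule would have joined it. For 32 of the 52 such relatives were measured. They came to 254 genes once 2 further relatives were set aside, which had met the rule and been left out by name. Of the 254, 6 were higher in DKO (2.36%) and 2 lower (0.787%), against 2.08% and 0.366% of all genes, with a median difference of -0.02. Without the relatives set aside, the share higher is near the background. The share lower rests on 2 genes, and the list follows symbols, not measured homology.

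The largest of the relatives past the test were Mal2 and Sema3b. Mal2, a proteolipid of transcytosis related to Mal, read 10.40 to 10.52 in control and 11.08 to 11.41 in DKO arrays, a difference of 0.72 (SE 0.0663, adjusted p = 4.04e-04). Sema3b, a secreted semaphorin like Sema3e, read 7.59 to 7.75 in control and 8.22 to 8.46 in DKO arrays, a difference of 0.71 (SE 0.0574, adjusted p = 1.39e-04). In both, every DKO array was above every control array, at a difference under the 0.8 of the rule. Adgrg1, an adhesion receptor like Adgrg6, was higher by 0.47 (SE 0.0569, adjusted p = 0.00169). Cldn12 (0.48, adjusted p = 0.00971), Myo7a (0.49, adjusted p = 0.0127) and Myh9, the heavy chain of nonmuscle myosin IIA (0.32, adjusted p = 0.0117), were higher too. Wfdc10 was lower (-0.66, adjusted p = 0.0164), as was Cldn10, a claudin of ion-selective junctions (-0.41, adjusted p = 0.0410), whose call was lost on leaving out any of 8 arrays.

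The 25 relatives with a claudin symbol, a pseudogene among them, ran from -0.49 to 0.90 with a median of -0.02. Cldn18, a claudin of stomach and lung, had the largest difference among these 25, 0.90, but its arrays ran from 7.17 to 8.63 in control and from 8.01 to 9.60 in DKO, overlapped and did not pass (SE 0.326, adjusted p = 0.223). The 37 other genes with a kinesin symbol, a pseudogene among them, lay between -0.15 and 0.22 around Kif3a at 0.90. The 5 other Iroquois factors measured were at -0.21 to -0.05 beside Irx4 at 1.00, and the grainyhead factors other than Grhl3 at -0.16 and 0.17. Ppargc1b, the relative of Ppargc1a, was at -0.19.

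**Figure D4:**
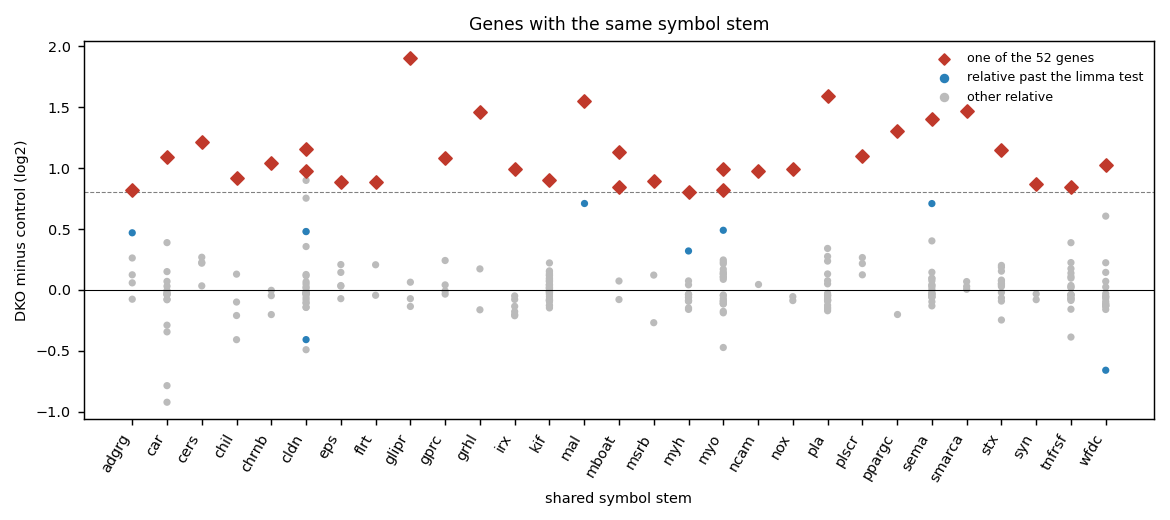
Difference between DKO and control means (log2, vertical axis) for the genes of the set (red diamonds) and for measured genes with the same symbol stem (circles, blue where past the limma test). The dashed line marks the 0.8 of the rule. Most circles lie near 0, and the blue ones include Mal2 at 0.72, Sema3b at 0.71 and Wfdc10 at -0.66.

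The 52 genes lay on 17 chromosomes, at most 5 on any (chromosomes 2 and 3). Cldn6 and Tnfrsf12a were direct neighbours on chromosome 17, on opposite strands with start sites 1916 bases apart and the stretch between those sites lying before both genes. Their differences were 0.98 (SE 0.108) and 0.84 (SE 0.113), while the genes on either side, Cldn9 (-0.14, adjusted p = 0.541) and Hcfc1r1 (-0.14, adjusted p = 0.366), did not pass the test. Krt80 was a direct neighbour of Krt7 on chromosome 15, a duct keratin that met the rule and was left out by name. Krt7 differed by 1.22 and Krt80 by 1.15, and the genes beside them, Krt87 (-0.11, adjusted p = 0.524) and Smim41 (0.04, adjusted p = 0.850), did not pass. Chodl and Ncam2 on chromosome 16 were separated by Tmprss15 alone, which encodes enteropeptidase and lay at -0.12 (adjusted p = 0.406). Near them Cxadr, a virus receptor and junction protein, was higher by 0.42 (SE 0.0512, adjusted p = 0.00175). None of the set lay close to the deleted kinase genes in gene order. Flrt3 was nearest to Stk4, 260 measured genes away, and Scx nearest to Stk3, 208 away. Ctrc, the gene high in control replicates 2 and 3, lies on chromosome 4. Pla2g5 was 55 measured genes from Ctrc, Grhl3 109 and Car9 810. Whether a place near Ctrc has a part in their levels was not tested.

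**Figure D5:**
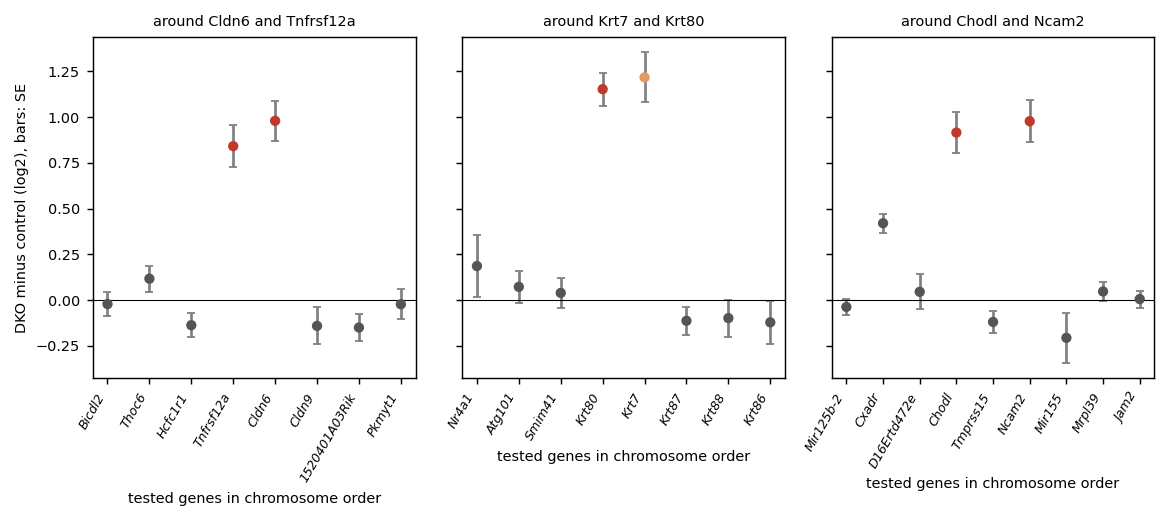
Difference between DKO and control means (log2, with SE) for measured genes in chromosome order around 3 neighbouring pairs. Red marks genes of the set, orange Krt7 and grey other genes. The paired genes lie between 0.84 and 1.22, and Cxadr, at 0.42, is the highest of the grey points.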

How the data were processed

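Total RNA of 5 control and 5 DKO pancreases was measured on 10 arrays. Affymetrix Expression Console made the values, per the submitters' processing notes, and its version and settings were not given in the sources used here. For each transcript cluster and array the authors deposited a log2 level, already on a common scale, which was used without further normalization, filter or pseudocount. Of 35556 clusters, 21789 had 1 gene symbol by the platform annotation, 1621 several and 12146 none. Only those with 1 symbol were used, symbols were updated through RefSeq gene identifiers (21698 matched, assembly GRCm38.p6), and of 999 genes with more than 1 cluster the brightest was kept, which left 19938.

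Groups were compared by limma 3.58.1 in R 4.3.3 (functions lmFit and eBayes, all 10 arrays, no covariate), with Benjamini-Hochberg adjustment over all genes and a threshold of 0.05. SEs are from this fit. The script was tested on simulated data. All 52 genes were named, with all arrays given for the 12 largest differences and the 3 largest of each role group, and of relatives and lists those past the test were named (for lists, up to 3). Other names (Cldn18, Alb, Ctrc, Stk4, Ppargc1b, Krt7, the Grhl genes and the neighbours) were chosen after their values were seen, as were the role groups. The genes of the set, the lists and the tests were chosen with earlier results of these data known. Relatives share the letters of a symbol before its first digit (at least 3 letters, at most 40 genes), which left 20 of the 52 without any. The number of arrays limits the precision. Alternatives tried were another normalization, median subtraction, variance settings, a filter on dim genes, cluster averages, other thresholds, Xist as a covariate, the replicate number as a block and leaving out each array.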

Additional observations from a re-analysis of the deposited data

Results flagged for a closer look

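A single array lay far from the other 4 of its group in 6 of 104 groups of 5 (5.77%), where chance gives about 1 in 20. Cldn23 read 7.52 in control replicate 3 against 7.14 to 7.25 in the other controls. Car9 was low in control replicate 5, at 6.80 against 7.33 to 7.51. Control replicate 3 was low for Il17re (7.47 against 7.84 to 7.93) and for Slc25a24 (8.27 against 8.49 to 8.54). DKO replicate 1 was high for Irx4 (8.55 against 6.87 to 7.11) and for Catspere2 (7.96 against 7.30 to 7.40).

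Transcript clusters that stood for no single gene were not used in the comparison. Of 1621 with several gene symbols 4 met the rule, and of 12146 with no gene name here 3 did.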

How the results depend on the processing

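No result reversed under any setting tried. All 676 recomputed differences of the 52 genes kept their sign, at 0.69 to 2.35. The rule had put every DKO array of these genes above every control array, so leaving out 1 array could not change a sign. Nothing is therefore read from the kept signs. Asking for a difference of at least 1 left 27 of the 52 genes, at least 0.7 gave 73, and the other settings gave 40 to 70. Over all genes the main test gave 414 higher and 73 lower. Leaving out 1 array gave 232 to 372 higher and 28 to 64 lower, with the fewest without control replicate 3 (232 and 28), and the count moved by over 1.5 times also without control replicate 2 (236 and 32) and DKO replicate 5 (239 higher), and, for genes lower, without DKO replicates 1 (40), 2 (40) and 4 (38) and control replicate 5 (43). Subtracting array medians gave 271 higher and 103 lower, quantile normalization 321 and 125, and Xist as a covariate 46 lower. The replicate number, which pairs no samples by the labels (correlations of same-numbered arrays -0.27 to 0.29), gave 162 higher and 16 lower as a block and left 3 of the 8 relatives called. Cldn12, Myh9, Myo7a and Wfdc10 lost their call under that block alone (adjusted p 0.0593, 0.0593, 0.0784 and 0.0792), and Cldn10 in 10 of 17 settings (up to 0.104). Of the list genes named as past the test, Rbpjl, Muc6, Krt8, Tff2 and Mylk also lost their call under the block. Krt8 and Mylk lost it with Xist as a covariate and with median subtraction too, and Tff2 and Mylk with quantile normalization. Clu, Krt19, Ajuba, F3 and Amotl2 kept theirs in every setting. The cause of these shifts was not tested.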
